A study of Mus musculus with 6 samples.

Results

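Genes of intraepithelial lymphocytes were examined in the villus epithelium of the mouse duodenum, in 3 double mutant villi (DMV) and 3 wild-type villi (WTV) samples, each from a different mouse. The 10 genes are *Ptprc*, *Itgae*, *Cd8a*, *Cd3e*, *Cd3g*, *Cd7*, *Ccl5*, *Nkg7*, *Gzma* and *Gzmb*, out of 20409 features in the count table. They were chosen by the lower CPM of *Ptprc*, *Cd8a* and *Ccl5* in DMV in this same comparison, so the difference between the groups in any of the 10 is given below as a description with no p-value. Counts of calls among the 10 stand only beside the share of all genes called, and nothing is read from them. All 10 passed the filter on low counts. The DMV mice carried Villin-CreERT2 with a floxed *Smad4* on both alleles (Smad4 fl/fl) and a floxed exon 3 of *Ctnnb1* on a single allele (Ctnnb1 exon3 fl/wt), on a C57BL6-enriched background. They received tamoxifen on consecutive days, and villi were taken a week after the first injection. The WTV mice were uninjected littermates matched for age and sex, so genotype and tamoxifen cannot be told apart. Mouse 1 of each group was male and mice 2 and 3 were female. Villin-CreERT2 acts in the intestinal epithelium and not in lymphocytes. The villi were shaken off in EDTA and kept on a filter, with no sort of cell types. Lymphocytes lying between epithelial cells could thus stay in the sample, and the share that stayed in each mouse is not known.

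Intraepithelial lymphocytes are mostly T cells that sit between the enterocytes of the small intestine. Many carry CD8 as a homodimer of the alpha chain, are held to epithelial E-cadherin by the integrin that *Itgae* and *Itgb7* encode, and store granzymes. Enterocytes feed and restrain them through IL-15, butyrophilin-like proteins and non-classical class I molecules. These lymphocytes are a small minority of the cells in a villus preparation, and in bulk RNA fewer cells and less RNA per cell cannot be told apart.

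The libraries held 19678507 to 26337318 counts, and 3 counts, taken as the smallest level this depth can show, amounted to 0.125 to 0.163 CPM (counts relative to the library total scaled by its TMM factor). *Smad4* was lower in every DMV mouse, at 26.1 to 36.8 CPM against 119.8 to 180.1 CPM in WTV, as the labels imply. The epithelial marker *Epcam* was at 1696 to 1940 CPM in WTV and 1761 to 1897 CPM in DMV, with a log2 fold change of 0.03. Of the 7 epithelial markers, *Vil1* and *Cldn7* were lower, *Krt19* was higher and the other 4 did not pass the test, and *Cldn7* kept its call in 1 of the 6 fits that leave out a mouse. WTV mouse 1 stood apart. Its 7 goblet cell markers summed to 138.6 CPM, against 15540 and 14650 CPM in WTV mice 2 and 3 and 4688 to 5296 CPM in DMV, and none of the 7 was called between the groups with all mice in (edgeR, 0 at an unadjusted p under 0.05, DESeq2 0). Without WTV mouse 1, 6 of the 7 were called lower (against 17.1% of all genes), with a median log2 fold change of -0.93.

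The summed level of the 10 genes was 119.4, 238.8 and 239.1 CPM in WTV mice 1, 2 and 3 and 99.0, 115.6 and 144.9 CPM in DMV mice 1, 2 and 3. WTV mouse 1 was therefore nearer to the DMV mice than to the other WTV mice, and lay between DMV mice 2 and 3. The DMV mean was 119.8 ± 23.2 CPM (SD, n = 3) and the WTV mean 199.1 ± 69.0 CPM (SD, n = 3), so that DMV had 60.2% of the WTV level, or 50.2% of the level in WTV mice 2 and 3. The log2 fold changes of the 10 genes had a median of -0.92, against 0.02 over all 13346 genes tested.

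**Figure D1:**
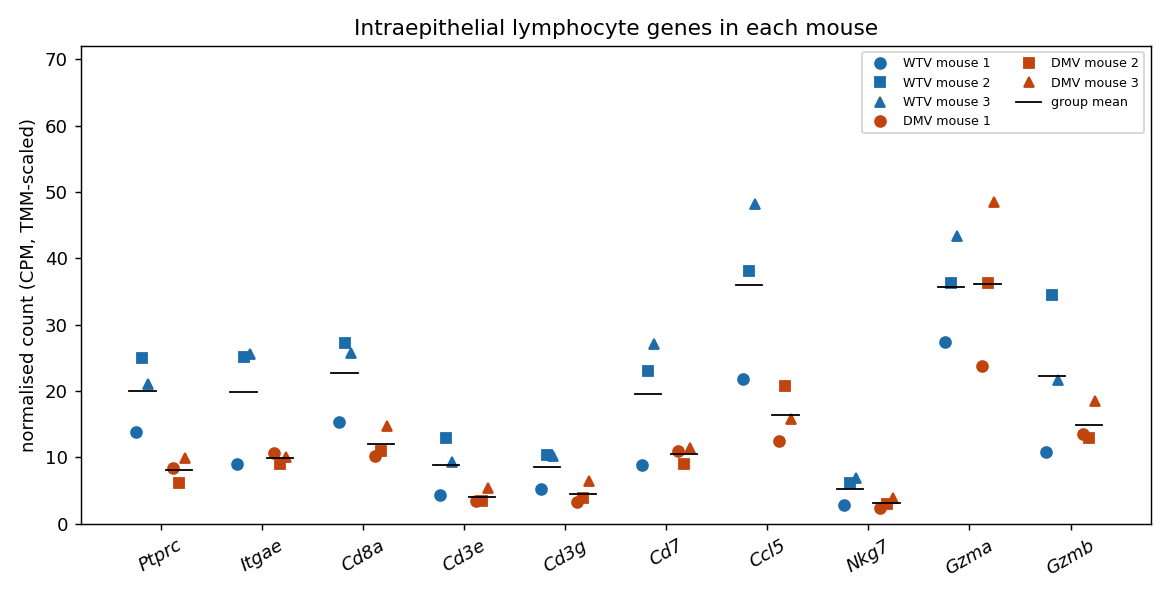
Normalised counts (CPM scaled by TMM factors) of the 10 intraepithelial lymphocyte genes in each of the 3 WTV mice (blue) and 3 DMV mice (orange), with the group means as lines. The WTV mouse 1 circle is the lowest WTV point for all 10 genes, and the *Gzma* means of 35.7 and 36.2 CPM are alike.

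*Ptprc* (ENSMUSG00000026395; mm9 chromosome 1, 139959438 to 140071882, minus strand) encodes CD45, the membrane phosphatase of all leukocytes. It had 13.9, 25.0 and 21.1 CPM in WTV mice 1, 2 and 3 and 8.36, 6.22 and 9.97 CPM in DMV mice 1, 2 and 3. Every DMV mouse was below every WTV mouse. The means were 19.97 ± 5.63 and 8.18 ± 1.88 CPM (SD, n = 3 each), and the log2 fold change was -1.29 with a standard error (SE) of 0.26, the most negative of the 10.

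*Itgae* (ENSMUSG00000005947; chromosome 11, 72904085 to 72960948, plus strand) encodes the integrin chain CD103, which binds E-cadherin and keeps the cells in the epithelium. Its level was 9.0, 25.2 and 25.6 CPM in the WTV mice and 10.7, 9.09 and 10.1 CPM in the DMV mice. The DMV mice were close together and WTV mouse 1 lay below all of them, so the groups overlapped. The means were 19.9 ± 9.46 and 9.94 ± 0.79 CPM, with a log2 fold change of -1.0 (SE 0.37). *Gsg2* lies within *Itgae* on the opposite strand, and since the strand setting of the counting is not stated, reads of the pair may be mixed.

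The genes of the T cell receptor complex and its co-receptor came next. *Cd8a* (ENSMUSG00000053977; chromosome 6, 71323421 to 71329165, plus strand), the CD8 alpha chain, had 15.3, 27.3 and 25.7 CPM in WTV and 10.2, 11.0 and 14.8 CPM in DMV. The groups did not overlap, but WTV mouse 1 and DMV mouse 3 were next to each other. The means were 22.8 ± 6.51 and 12.0 ± 2.45 CPM and the log2 fold change -0.92 (SE 0.24).

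*Cd3e* (ENSMUSG00000032093; chromosome 9, 44806826 to 44817673, minus strand), a signalling chain of the receptor complex, had 4.37, 12.95 and 9.30 CPM in WTV and 3.38, 3.39 and 5.36 CPM in DMV. *Cd3g* (ENSMUSG00000002033; chromosome 9, 44777655 to 44788514, minus strand), its neighbour in the genome and partner in the complex, had 5.21, 10.4 and 10.3 CPM in WTV and 3.29, 3.90 and 6.50 CPM in DMV. In both genes DMV mouse 3 exceeded WTV mouse 1, and WTV mice 2 and 3 exceeded every DMV mouse. The log2 fold changes were -1.13 (SE 0.39) for *Cd3e* and -0.91 (SE 0.35) for *Cd3g*.

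*Cd7* (ENSMUSG00000025163; chromosome 11, 120898061 to 120900732, minus strand) encodes an immunoglobulin-family receptor of T and NK cells. Its values were 8.83, 23.0 and 27.0 CPM in WTV and 11.0, 8.95 and 11.4 CPM in DMV. As with *Itgae*, WTV mouse 1 lay below all 3 DMV mice. The log2 fold change was -0.90 (SE 0.38), and the gene overlaps *Gm11775* on the opposite strand.

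*Ccl5* (ENSMUSG00000035042; chromosome 11, 83339280 to 83344020, minus strand) encodes the chemokine RANTES, which memory-type CD8 T cells transcribe without fresh stimulation. It had 21.8, 38.1 and 48.2 CPM in WTV and 12.5, 20.8 and 15.8 CPM in DMV. The groups did not overlap, although WTV mouse 1 was only just above DMV mouse 2. The means were 36.1 ± 13.3 and 16.4 ± 4.20 CPM, with a log2 fold change of -1.14 (SE 0.31).

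The last 3 of the 10 belong to cytotoxic granules. *Nkg7* (ENSMUSG00000004612; chromosome 7, 50692443 to 50693616, plus strand), a granule membrane protein needed for release of the granules, had 2.79, 6.09 and 6.93 CPM in WTV and 2.35, 3.06 and 3.94 CPM in DMV, the lowest mean levels of the 10 genes in CPM. DMV mice 2 and 3 exceeded WTV mouse 1, so the groups overlapped. Its log2 fold change was -0.75 (SE 0.37).

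*Gzmb* (ENSMUSG00000015437; chromosome 14, 56877693 to 56881097, minus strand) encodes granzyme B, a serine protease that triggers cell death. It had 10.9, 34.5 and 21.6 CPM in WTV and 13.5, 12.9 and 18.5 CPM in DMV. The WTV mice spanned the whole DMV range, from the lowest value of the 6 to the highest, and the log2 fold change was -0.57 (SE 0.39). Under 13 other settings the fold change ranged from -0.91 (without WTV mouse 1) to -0.12 (without WTV mouse 2).

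*Gzma* (ENSMUSG00000023132; chromosome 13, 113884033 to 113891187, minus strand) encodes granzyme A, a protease of the same granules with other substrates. Its level was 27.4, 36.3 and 43.3 CPM in WTV and 23.7, 36.3 and 48.6 CPM in DMV. The lowest and the highest of the 6 mice were both DMV mice. The means were 35.7 ± 8.0 and 36.2 ± 12.4 CPM (SD, n = 3 each) and the log2 fold change was 0.02 (SE 0.27). Its sign was negative under 5 of 13 other settings, which ranged from -0.24 to 0.26, while the other 9 genes stayed negative under all 13.

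Levels of different genes were compared per kilobase of exon. In WTV, *Gzma* (38.0 ± 8.5 CPM per kb) and *Ccl5* (37.6 ± 13.9 CPM per kb) led, followed by *Cd7* (17.3 ± 8.4), *Gzmb* (15.8 ± 8.3), *Cd3g* (8.06 ± 2.76), *Cd8a* (7.27 ± 2.08), *Cd3e* (6.18 ± 3.00), *Nkg7* (6.00 ± 2.49), *Itgae* (4.35 ± 2.07) and *Ptprc* (3.43 ± 0.97). Apart from the step from *Ccl5* to *Cd7*, neighbours in this order differed by less than the larger of their SDs. *Epcam* stood at 873 CPM per kb, far above all of them. In DMV the *Gzma* level was 38.5 ± 13.2 CPM per kb and that of *Ccl5* was 17.1 ± 4.37 CPM per kb, so the pair at the top of the WTV order was separated.

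Each gene was also set against *Ptprc* in the same mouse. As *Ptprc* was chosen for its lower level and had the most negative log2 fold change of the 10, higher ratios in DMV follow from that choice. The log2 ratio of *Gzma* to *Ptprc* was 0.85 ± 0.27 in WTV and 2.11 ± 0.54 in DMV, with no overlap. The ratio of *Gzmb* to *Ptprc* was 0.05 ± 0.41 in WTV and 0.88 ± 0.18 in DMV, and that of *Cd8a* was 0.18 ± 0.09 and 0.56 ± 0.27, again with no overlap in either gene. In the other 6 genes the ratios overlapped, and the DMV mean exceeded the WTV mean by 0.18 (*Ccl5*) to 0.59 (*Nkg7*). With the sum of *Ptprcap*, *Coro1a* and *Laptm5*, other genes of all leukocytes, in place of *Ptprc*, the differences moved to 0.42 for *Gzma*, -0.01 for *Gzmb* and -0.46 for *Cd8a*. *Ptprc* itself was lower against this sum, by 0.84 on the log2 scale (0.13 ± 0.41 in WTV and -0.71 ± 0.39 in DMV). The sign thus turned with the reference for 8 of the 9 genes and not for *Gzma*, whose groups overlapped with the second reference. *Ptprcap* overlaps *Rps6kb2* on the opposite strand.

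With all 6 mice, 3 of the 10 genes were called lower in DMV, at an adjusted p under 0.05 (edgeR's quasi-likelihood test), and these were *Ptprc*, *Cd8a* and *Ccl5*, the genes that prompted the choice. Among all tested genes 17% were called lower, and the same comparison chose them. The same 3 genes were those with every DMV mouse below every WTV mouse, a pattern seen in 24.2% of all tested genes. DESeq2 called 7 of the 10 lower (12.4% of all genes), adding *Cd3e*, *Cd3g*, *Itgae* and *Cd7*. With sex as a covariate edgeR called 5 (17.2% of all genes), adding *Cd3e* and *Cd3g*, and with no filter on low counts it called 2 (10.6% of all genes), with *Ccl5* lost.

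WTV mouse 1 was the lowest of the WTV mice in 10 of 10 genes, against 38.2% of all tested genes. Its level was between 35.3% (*Cd7*) and 68.7% (*Gzma*) of the mean of WTV mice 2 and 3, with a median of 46.7%, while over all tested genes the median was 99.7%. DMV mouse 3 was the highest DMV mouse in 8 of the 10 genes, against 28.1% of all tested genes. The part that the goblet cell content of WTV mouse 1 has in these values was not tested. Each group has a single male, so no comparison within males could be made.

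Without WTV mouse 1, 9 of the 10 genes were called lower (17.1% of all genes), all but *Gzma*, and the median log2 fold change was -1.22. As WTV mouse 1 was the lowest WTV mouse in all 10 genes, more negative values follow from leaving it out. *Itgae* then had a log2 fold change of -1.35 (SE 0.15), *Cd7* of -1.26 (SE 0.17) and *Cd3e* of -1.46 (SE 0.26), each with a smaller SE than with all mice. *Gzma* remained near 0, at -0.14 (SE 0.27). With the 2 females of each group alone, 9 of 10 were called (19.0% of all genes). This fit was chosen after seeing the data and also leaves out WTV mouse 1. Leaving out WTV mouse 2, WTV mouse 3 or DMV mouse 1 left only *Ptprc* called (12.6%, 13.5% and 14.7% of all genes). Leaving out DMV mouse 2 left *Ptprc* and *Ccl5* (11.9%), and leaving out DMV mouse 3 left *Ptprc*, *Cd8a* and *Cd3g* (12.3%).

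**Figure D2:**
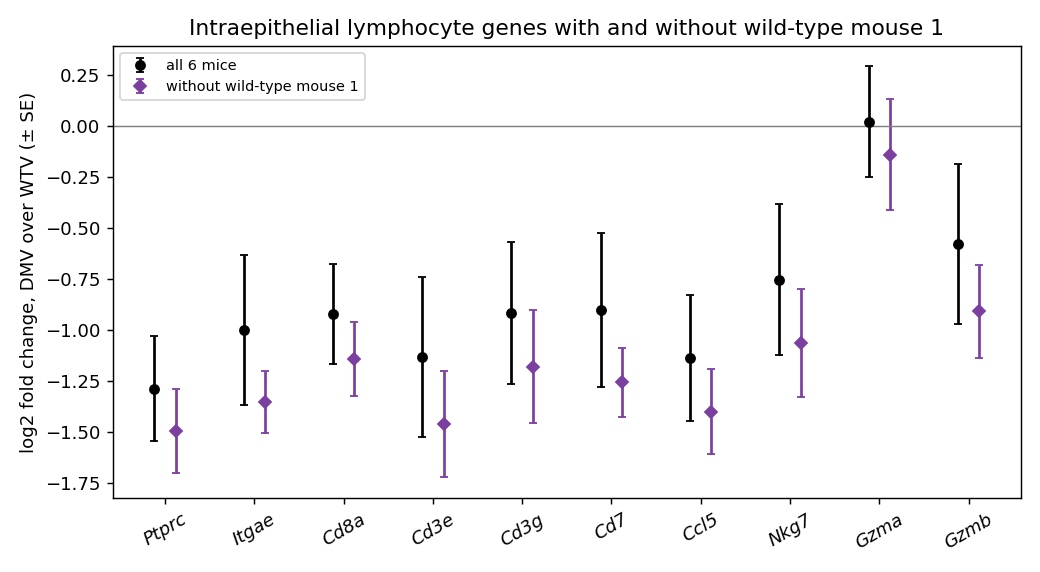
Log2 fold change (DMV over WTV) of the 10 genes with its standard error, from all 6 mice (black circles) and without WTV mouse 1 (purple diamonds). As that mouse is the lowest WTV mouse in all 10 genes, all 10 values are lower without it, as for *Itgae* (-1.0 and -1.35). *Gzma* lies within its standard error of 0 in both fits.

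To show what the regulatory sequence of these genes looks like, the 250 bases before the start of transcription (RefSeq, GRCm38.p6) are printed for *Ptprc* and *Cd8a*, 2 of the genes with separate groups, and for the 2 granzymes, the genes closest to no difference. RefSeq promoters were matched for 7 of the 10 genes. They were searched on both strands for AGGAAG, the core bound by ETS factors, and for TGTGGT, the core bound by RUNX factors, both of which act in T cells. These motifs do not overlap each other, and the matches are in capitals, in either orientation.

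The *Ptprc* stretch is chr1:138175306-138175555 and that of *Cd8a* chr6:71373177-71373426, the former on the minus and the latter on the plus strand. *Gzma* (chr13:113100982-113101231) and *Gzmb* (chr14:56262335-56262584) are on the minus strand. All are written 5′ to 3′ along the strand of the gene.
Ptprc: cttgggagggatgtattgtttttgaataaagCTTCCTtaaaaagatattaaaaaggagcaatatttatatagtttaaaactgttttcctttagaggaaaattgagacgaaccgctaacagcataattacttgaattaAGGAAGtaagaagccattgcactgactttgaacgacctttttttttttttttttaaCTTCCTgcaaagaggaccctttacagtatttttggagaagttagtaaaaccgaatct
Cd8a: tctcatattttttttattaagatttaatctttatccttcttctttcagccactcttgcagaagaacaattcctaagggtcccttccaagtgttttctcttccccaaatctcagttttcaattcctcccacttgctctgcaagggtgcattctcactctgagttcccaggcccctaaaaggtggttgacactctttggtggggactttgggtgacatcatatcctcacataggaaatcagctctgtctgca
Gzma: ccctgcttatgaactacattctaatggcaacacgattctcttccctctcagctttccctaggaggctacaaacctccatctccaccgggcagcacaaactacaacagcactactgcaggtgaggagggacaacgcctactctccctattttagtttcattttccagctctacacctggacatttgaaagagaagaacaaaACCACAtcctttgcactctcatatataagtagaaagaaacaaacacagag
Gzmb: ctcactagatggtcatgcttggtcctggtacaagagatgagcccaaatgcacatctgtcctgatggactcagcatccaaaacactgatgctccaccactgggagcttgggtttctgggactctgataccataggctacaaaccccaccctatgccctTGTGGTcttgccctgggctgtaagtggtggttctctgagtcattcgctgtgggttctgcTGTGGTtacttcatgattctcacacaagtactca

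RefSeq gives 2 starts for *Ptprc*, and the window printed is the first listed. The ETS letters occurred 3 times in it and 1 time in the window of the other start (chr1:138175127-138175376), which overlaps it, and were found for 3 of the 7 genes (*Ptprc*, *Cd3e* and *Nkg7*), against 29.5% of 32851 promoter windows of this length. The RUNX letters occurred 2 times before *Gzmb* and were found for 3 of the 7 (*Gzma*, *Gzmb* and *Nkg7*), against 14.0% of windows. The *Cd8a* window held neither. A match of letters is a description of the window and not a binding site.

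The 10 genes were then read beside other genes of the same cells. Together, 4 lists of T cell and NK cell genes held 85 genes, of which 80 were in the table and 50 had enough counts to be tested. Of the 50, 4 were lower, 5 were higher and 41 did not pass the test, which makes 8.0% lower against 17% of all tested genes. Higher calls made up 19.7% of all tested genes. The log2 fold change was negative in 40 of 50, with a median of -0.40. Under scaling by library size alone, which moves the median of all tested genes from 0.02 to 0.22, 33 of 50 were negative and the median was -0.22. WTV mouse 1 was the lowest WTV mouse in 43 of the 50 (86.0%). Without it 15 of 54 were lower (27.8%, against 17.1% of all genes) and 5 higher, with a median of -0.71.

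Among T cell receptor chains and co-receptors none of 8 tested genes was called (edgeR, 1 at an unadjusted p under 0.05, and DESeq2 called *Trac* lower). *Trac*, the constant part of the receptor alpha chain, had 3.37, 3.97 and 2.53 CPM in WTV and 2.30, 1.39 and 1.04 CPM in DMV, with a log2 fold change of -1.06 (SE 0.37, edgeR adjusted p = 0.053). Its groups did not overlap, but the value just missed the threshold. The beta chain genes *Trbc1* (-1.07, SE 0.54) and *Trbc2* (-0.09, SE 0.33), near-identical copies whose reads the counting may split, did not pass either. Without WTV mouse 1, *Cd3d* and *Trbc1* were called lower. *Cd4*, the co-receptor of helper T cells, had at most 11 counts in any mouse, against 218 to 509 counts of *Cd8a*.

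Of 11 tested genes of T cell signalling, none was lower (3 at an unadjusted p under 0.05 in either direction, DESeq2 0 lower) and *Ptpn22*, a phosphatase that restrains receptor signals, was higher. *Ptpn22* rose from 2.58, 6.58 and 7.18 CPM in WTV to 13, 20.2 and 14.1 CPM in DMV, a log2 fold change of 1.54 (SE 0.37, edgeR adjusted p = 0.014), a call that was lost without DMV mouse 2. The gene overlaps *Gm15472* on the same strand and *Gm15602* on the opposite strand, and which cells made its transcripts was not tested. The kinase *Lck* had 3.21, 9.41 and 7.28 CPM in WTV and 3.43, 3.80 and 4.13 CPM in DMV (log2 fold change -0.80, edgeR adjusted p = 0.119). Its DMV mice lay within the WTV range, above WTV mouse 1 and below the others. Without WTV mouse 1, 3 of 12 tested genes of this list were lower (*Lck*, *Sh2d2a* and *Grap2*), against 17.1% of all genes. *Zap70*, the kinase that docks on the CD3 chains, had a log2 fold change of -0.38 (SE 0.39).

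Of 13 tested genes of cytotoxic effectors and NK-type receptors, 2 were lower and none higher, with a median of -0.72. DESeq2 called 4 of 22 genes of the list lower, *Klrd1* among them. *Ctsw*, a protease of cytotoxic lymphocytes, fell from 5.71, 9.25 and 9.35 CPM in WTV to 2.30, 4.50 and 4.94 CPM in DMV, by 1.05 on the log2 scale (SE 0.33, edgeR adjusted p = 0.035), and was called in 2 of the 6 fits that leave out a mouse. *Klre1*, a lectin-like NK receptor, fell from 17, 16 and 13 counts in WTV mice 1, 2 and 3 to 1, 2 and 3 counts in DMV (edgeR adjusted p = 0.0057), and was called in all 6 fits. No fold change is given for it, since no DMV mouse exceeded 3 counts. *Klrd1*, the partner of the NKG2 receptors, had 1.38, 5.98 and 7.63 CPM in WTV and 2.07, 1.81 and 1.80 CPM in DMV (edgeR adjusted p = 0.0801). The proteoglycan *Srgn*, which packs the granzymes, had a log2 fold change of -0.18 (SE 0.34). The pore-former *Prf1* had 3, 21 and 25 counts in WTV and 0, 4 and 8 in DMV, too few to be tested with all mice in. Without WTV mouse 1, 5 of 15 tested genes were lower (*Prf1*, *Ctsw*, *Klrd1*, *Klre1* and *Cd244*), against 17.1% of all genes.

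The list of residency genes, homing receptors and cytokine receptors held 18 tested genes, of which 2 were lower and 4 higher. *Il2rb*, the receptor chain through which lymphocytes read IL-15 and IL-2, fell from 4.25, 10.2 and 9.15 CPM in WTV to 4.08, 3.25 and 2.90 CPM in DMV, by 1.20 on the log2 scale (SE 0.34, edgeR adjusted p = 0.024). The transcription factor *Ikzf3* fell by 1.08 (SE 0.34, edgeR adjusted p = 0.035). *Il2rb* was called in 2 and *Ikzf3* in 1 of the 6 fits that leave out a mouse, and WTV mouse 1 stood next to the DMV mice in both. The *Il2rb* call was also lost with the replicate number as a block, and the *Ikzf3* call under library size alone. Without WTV mouse 1, 5 of 18 genes of the list were lower (against 17.1% of all genes), with *Itgb7*, *Runx3* and *Tbx21* added, and 4 were higher.

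The 4 higher genes of that list were *Jaml*, *Tcf7*, *Bcl11b* and *Itga1*. *Jaml*, an adhesion molecule that T cells use to bind epithelium, rose from 3.12, 8.05 and 11.9 CPM in WTV to 122.8, 104.5 and 137.7 CPM in DMV, a log2 fold change of 3.99 (SE 0.47, edgeR adjusted p = 0.0017). Per length that is 49.5 ± 6.77 CPM per kb in DMV, above *Gzma*. *Gm10684* overlaps *Jaml* on the opposite strand. *Tcf7*, a transcription factor of both T cells and the Wnt pathway, rose from 0.83 to 1.69 CPM in WTV to 6.17 to 7.31 CPM in DMV (log2 fold change 2.38, SE 0.30, edgeR adjusted p = 0.00075). *Bcl11b*, known for its role in T cell commitment, rose by 1.37 (SE 0.16, edgeR adjusted p = 0.00048), and the integrin *Itga1* by 1.07 (SE 0.26, edgeR adjusted p = 0.014). *Itga1* overlaps *Pelo* on the same strand and lost its call without WTV mouse 2 or DMV mouse 3. Which cells made these transcripts was not tested.

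**Figure D3:**
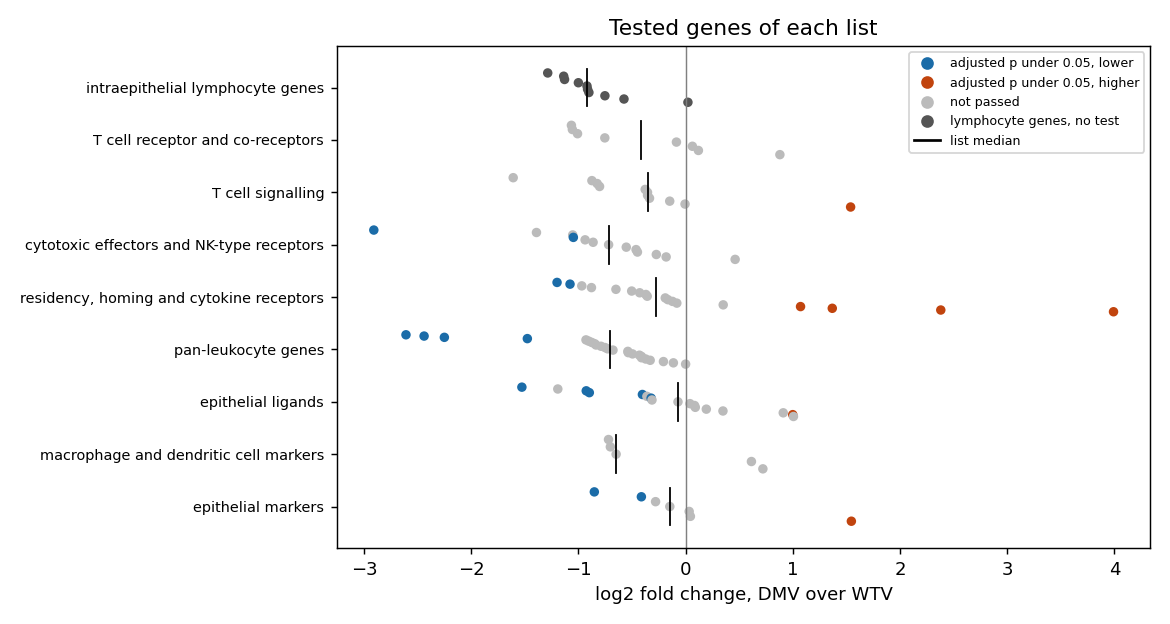
Log2 fold change (DMV over WTV) of every tested gene of 9 lists, 1 point a gene, with the median of each list as a line. Blue and orange points passed at an adjusted p under 0.05 (lower and higher), grey points did not, and the 10 intraepithelial lymphocyte genes (dark, described without a test) have a median of -0.92 against -0.40 for the 50 tested genes of the 4 lymphocyte lists.

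Of 24 tested genes of all leukocytes, 4 were lower (16.7%, against 17% of all genes), none was higher and 23 had a negative log2 fold change, with a median of -0.70 (22 of 24 and -0.52 under library size alone). *Rac2*, a GTPase of blood cells, fell from 19.7, 17.4 and 24.4 CPM in WTV to 3.85, 4.04 and 5.03 CPM in DMV, by 2.25 on the log2 scale (SE 0.20, edgeR adjusted p = 0.00017). The adaptor *Fyb* fell by 2.61 (SE 0.22, edgeR adjusted p = 0.00014) and the exchange factor *Vav1* by 2.44 (SE 0.28, edgeR adjusted p = 0.00048). *Cytip*, which binds a guanine exchange factor in lymphocytes, fell by 1.48 (SE 0.33, edgeR adjusted p = 0.0094). In all 4 genes the groups were apart, WTV mouse 1 was not the lowest WTV mouse, and the call was kept in all 6 fits that leave out a mouse. Which cells made the transcripts of these 4 genes was not tested. *Coro1a*, an actin regulator of leukocytes, had 4.04, 14.1 and 11.5 CPM in WTV and 5.59, 7.79 and 8.88 CPM in DMV (log2 fold change -0.41, SE 0.43), with WTV mouse 1 again lowest. Without WTV mouse 1, 11 of 24 were lower (45.8%, against 17.1% of all genes).

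Markers of other cells that a villus preparation can hold were at low levels. The summed level of 7 B and plasma cell markers was 0.75 to 1.06 CPM in WTV and 0.80 to 2.55 CPM in DMV, and that of 12 macrophage and dendritic cell markers was 15.7 to 19.0 CPM in WTV and 13.3 to 17.6 CPM in DMV. *Csf1r* and *Adgre1*, which define macrophages, had at most 6 and 4 counts, and none of 5 tested genes of that list was called (edgeR, 1 at an unadjusted p under 0.05, DESeq2 0). Of these, *Itgam* had a log2 fold change of 0.61, *Cd14* of -0.65 and *Mrc1* of -0.70. Stromal and muscle markers summed to 0 to 0.25 CPM in WTV and 0.33 to 5.87 CPM in DMV, the highest being DMV mouse 1, with 40 counts of *Acta2*, 35 of *Des* and 47 of *Myh11*. Endothelial markers summed to 2.33 to 5.39 CPM in WTV and 4.27 to 4.92 CPM in DMV. Erythrocyte, mast cell and neutrophil markers summed to at most 0.75, 1.16 and 0.05 CPM. Of the 9 tested genes of all 8 lists of other cells 1 was called lower (a call lost without WTV mouse 2, DMV mouse 1 or DMV mouse 3), and without WTV mouse 1 *Itgax* and *Cd14* were called lower too.

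The last group was the genes of the epithelium whose products attract, hold or feed intraepithelial lymphocytes. Of 17 tested, 5 were lower (29.4%, against 17% of all genes), 1 was higher and 11 did not pass. With any mouse left out 2 or 3 of the 17 were lower (11.8% or 17.6%, against 11.9% to 17.1% of all genes). WTV mouse 1 was the lowest WTV mouse in 4 of the 17 (23.5%). *Il15*, the survival cytokine of these lymphocytes, fell from 27.8, 26.7 and 29.0 CPM in WTV to 14.8, 11.4 and 17.7 CPM in DMV, by 0.93 on the log2 scale (SE 0.17, edgeR adjusted p = 0.0038). The WTV mice lay within 3 CPM of each other, mouse 1 included, and all DMV mice were well below them. *Il15ra*, which presents IL-15 to the lymphocyte, had a log2 fold change of -0.07 (SE 0.17).

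Of the cytokine genes, *Il18*, an activator of lymphocytes made by enterocytes, rose from 75.5, 54.7 and 59.3 CPM in WTV to 121.1, 149.7 and 108.0 CPM in DMV, a log2 fold change of 1.00 (SE 0.17, edgeR adjusted p = 0.0024). *Il7*, a growth factor of T cells, had 1.54, 2.99 and 3.29 CPM in WTV and 5.16, 4.59 and 4.89 CPM in DMV, and its adjusted p of 0.0501 (edgeR) lay just past the threshold. *Il15* and *Il18* kept their calls in all 6 fits that leave out a mouse.

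Butyrophilin-like proteins select and maintain gamma delta lymphocytes in the epithelium. *Btnl4* fell from 194.2, 244.5 and 170.3 CPM in WTV to 98.9, 80.4 and 147.5 CPM in DMV, by 0.90 on the log2 scale (SE 0.23, edgeR adjusted p = 0.019), and lost the call without WTV mouse 2, DMV mouse 1 or DMV mouse 2. *Btnl1* (-0.36, SE 0.16) and *Btnl2* (-0.31, SE 0.11) did not pass in edgeR. DESeq2 called *Btnl2* lower, and every DMV mouse was below every WTV mouse in that gene. These genes are close copies of each other, and the counting may have split their reads. *Btnl6* had 34.2, 0 and 27.8 CPM in WTV and 10.2, 16.98 and 0 CPM in DMV, with values of 0 in both groups. These values are those of an identifier annotated as a pseudogene, which a protein-coding *Btnl6* entry overlaps on the same strand, so they may not be those of the coding gene.

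Among the molecules that restrain lymphocytes, *Cd274*, which encodes PD-L1, fell from 3.79, 3.65 and 2.88 CPM in WTV to 1.17, 1.02 and 1.38 CPM in DMV, by 1.53 on the log2 scale (SE 0.30, edgeR adjusted p = 0.0049), in all 6 fits that leave out a mouse. *H2-T3*, the thymus leukemia antigen that binds CD8 alpha homodimers, fell from 323.2, 324.0 and 313.9 to 238.5, 258.5 and 272.1 CPM (by 0.32, SE 0.10, edgeR adjusted p = 0.037). *Tnfrsf14*, the epithelial receptor HVEM, fell by 0.40 (SE 0.13, edgeR adjusted p = 0.044). These 2 changes are small, and the calls were kept in 0 and 1 of the 6 fits that leave out a mouse.

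*Cdh1*, which encodes E-cadherin, the partner of the *Itgae* product, had 712.5, 857.2 and 835.3 CPM in WTV and 949.1, 789.0 and 809.4 CPM in DMV, with a log2 fold change of 0.08 (SE 0.13). The chemokine genes *Ccl25* (0.19, SE 0.13) and *Cxcl16* (0.35, SE 0.15) did not pass, nor did *Cxcl9* (1.01, SE 0.57), *Cxcl10* (0.09, SE 0.65) and *Tgfb1* (0.04, SE 0.43), each under 4 CPM in every mouse.

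**Figure D4:**
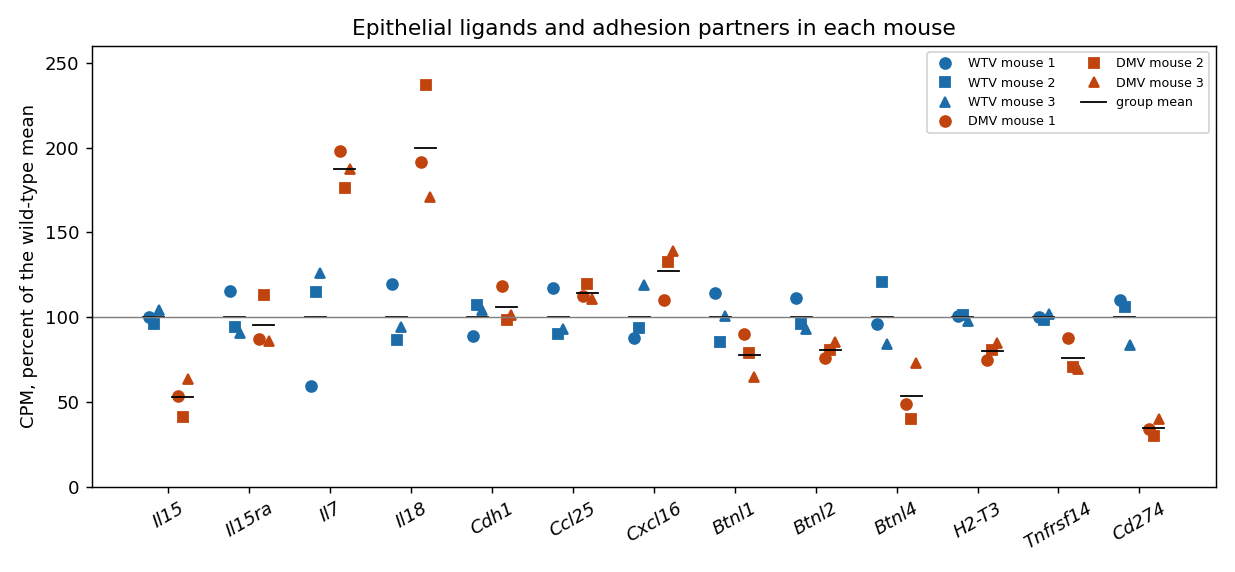
CPM of 13 tested epithelial genes in each mouse as a percentage of the WTV mean (line at 100), WTV in blue and DMV in orange, with the group means as lines. *Il15*, *Btnl4* and *Cd274* are lower in all 3 DMV mice and *Il18* is higher, while *Cdh1* and *Il15ra* overlap.

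The genes whose pattern over the 6 mice was closest to the mean of the 10 were sought among 12099 genes at a mean of at least 1 CPM, by the root mean square difference of centred log2 CPM. They were *Dpysl2* (0.108), *Ikzf3* (0.115), *Grk5* (0.115), *Dll4* (0.128) and *Rltpr* (0.131). As the measure of likeness itself favours, WTV mouse 1 was the lowest WTV mouse in these 5. *Dpysl2* had 5.17, 11.7 and 10.8 CPM in WTV and 4.41, 5.10 and 5.22 CPM in DMV. Within the 10, *Cd8a* was nearest to their mean (0.110) and *Gzma* farthest (0.470), with 2120 other genes closer to the mean than *Gzma*.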

How the data were processed

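RNA of villus epithelium from 3 DMV and 3 WTV mice was enriched for polyadenylated transcripts and sequenced as 1 library per mouse. Reads were aligned by the authors with HISAT2 (mm9) and assigned to genes with featureCounts, and the deposited values are raw counts, neither normalized nor pooled. The submitters' processing notes name these tools without settings, and the strand setting and the rule for reads matching several genes are not given in the sources used here. Groups, replicate numbers and sex came from the sample labels.

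From the counts onward, genes were kept by filterByExpr (13346 genes), scaled by TMM and tested with edgeR 4.0.16 (quasi-likelihood, robust; R 4.3.3), with p-values adjusted by Benjamini-Hochberg across the 13346 genes and a threshold of 0.05. DESeq2 1.42.0 was an alternative. The tests were tried on simulated counts beforehand. CPM values are scaled by TMM factors. Standard errors are the log2 fold change over the square root of F. Symbols and positions came from the GENCODE annotation of mm9, which held 20032 of 20073 Ensembl identifiers. *Btnl1*, *Btnl4*, *Jaml* and the goblet gene *Clca1* carry older symbols there. A further 336 features are numbered transcripts outside the annotation.

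The 10 genes and all lists were chosen with earlier results of these data known. Named genes were the 10, the 3 highest by CPM of each other list, all tested epithelial ligands, the 5 genes of most similar pattern and *Smad4*. Other genes (*Klre1*, *Il2rb*, *Tcf7*, *Fyb*, *Vav1*, *Krt19*, *Cldn7*, *Cd3d*, *Cd4*, *Prf1*, the low-count markers and those called without WTV mouse 1) were named after their values were seen. The series' design states that the 3 mice of a group are biological replicates. Results for some marker genes are not reported here.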

Additional observations from a re-analysis of the deposited data

How the results depend on the processing

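The number of genes called over all 13346 tested (4905) stayed within 1.5 times under every alternative, with 3442 to 5144 when a mouse was left out, and scaling by library size alone turned the share of higher calls from 53.7% to 72.4%. Of the lymphocyte genes in the 4 lists, 4 were lower with all mice, 7 with DESeq2, 2 under library size alone, 14 with females only (an alternative chosen after seeing the data) and 1 to 15 when a mouse was left out, the highest without WTV mouse 1. Of the genes of all leukocytes, 4 were lower, 11 with females only and 4 to 11 when a mouse was left out, again the highest without WTV mouse 1. Of the epithelial ligands, 5 were lower, 3 under library size alone, 3 with no filter on low counts, 3 with females only and 2 to 3 when any mouse was left out. Of the markers of other cells, 1 was lower, 0 under library size alone (edgeR, 1 at an unadjusted p under 0.05), 3 with females only and 0 to 3 when a mouse was left out. The causes of these moves were not tested. Mice of the same number did not vary together (correlations of 0.02, -0.11 and 0.01, so not every mouse correlated best with its own number), and with the replicate number as a block 3834 genes were called and 3 epithelial ligands, 3 lymphocyte genes, 4 genes of all leukocytes and 1 marker of other cells were lower. Of the values for single genes, 184 stayed within the spread between mice, though among them the log2 fold change of *Gzma* was negative under 5 settings and the ratio of *Ccl5* to *Ptprc* was -0.20 without DMV mouse 2. The other 9, the ratios to *Ptprc*, moved by more than the spread with the other reference, and all but that of *Gzma* changed sign. These moves were to -0.46 for *Cd8a*, -0.60 for *Cd3e*, -0.48 for *Cd3g*, -0.66 for *Ccl5*, 0.42 for *Gzma*, -0.01 for *Gzmb*, -0.42 for *Itgae*, -0.32 for *Cd7* and -0.25 for *Nkg7*. Depth limits the genes near 3 counts, such as *Klre1*.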
